A study of Homo sapiens with 42 samples.

Results

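Described here are 33 genes of the endoplasmic reticulum (ER), the compartment in which secreted and membrane proteins are folded. They encode its chaperones, disulfide-forming enzymes, degradation machinery, import and export components, and the sensors and factors of the unfolded protein response (UPR). They were chosen by name as targets of the factors ATF6 and XBP1 with those factors and ERN1. The rule uses no measured value, but the list was drawn up with earlier results of these data known. All 33 were found among the 60606 genes of the deposited expression table, whose unit is TPM, transcripts per 1000000, scaled by transcript length and by library. The 32 members with a mean of at least 1 TPM over 30 libraries were tested together with all other such genes, 14426 in total. The remaining member was DERL3, a gene of the derlin family of degradation factors, which averaged 0.776 TPM and ranged over the libraries between 0.145 and 2.44 TPM.

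The libraries were made from polyA RNA of whole AC16 cells, a human line labelled as cardiomyocyte-like. The 7 variant groups, D308N, D308V, R343W, G27D, P291L, R161W and T189M, carried a doxycycline-inducible hairpin against RPL3, which encodes a large-subunit ribosomal protein, together with RPL3L bearing the named amino acid change. RPL3L is the paralog of RPL3 found mainly in heart and skeletal muscle. RPL3L_WT cells carried the same hairpin with unchanged RPL3L, shRPL3 cells carried the hairpin alone, and shScramble cells carried a scrambled hairpin. All 10 groups, controls included, received doxycycline at 1 ug/ml and had 3 libraries each. The lines were made with lentivirus. Hairpin cells were selected with hygromycin, and RPL3L cells were derived from shRPL3 cells and sorted for the blue fluorescence of the construct, so a variant line also differs from shRPL3 in having been sorted. Whether replicates were separate cultures is not stated in the labels, and the p-values below therefore measure the spread between these samples alone.

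When unfolded proteins build up in the ER, the sensor IRE1, encoded by ERN1, splices the XBP1 transcript into the form that encodes an active transcription factor. ATF6 is a membrane protein that moves to the Golgi, where the proteases MBTPS1 and MBTPS2 release its active part. Together these factors raise chaperones, disulfide isomerases and degradation genes, while the sensor PERK, encoded by EIF2AK3, slows translation and raises ATF4 and DDIT3. In heart muscle the ATF6 and XBP1 branches are known for raising ER chaperones under ischemic stress. Gene TPM do not separate spliced from unspliced XBP1, and neither the cleavage of ATF6 nor the activity of any sensor was measured here.

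The best known binding sequence of this response is the ER stress response element, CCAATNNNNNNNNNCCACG, which is CCAAT and CCACG with 9 bases of any kind between them. It was looked for on both strands in RefSeq promoter windows (GRCh38.p14) of 250 bases before to 50 after 1 transcript start of each gene. For CANX, SIL1, SSR1, PDIA6 and DNAJB11 that start lies far inside the gene as GENCODE gives it, not at its outer end. For others, among them DERL2, ERN1, SEC61G and CRELD2, it lies inside by less. A window was at hand for 29 of the 33 members, not for PDIA3, DERL1, DERL3 or SEC24D. The whole element was present in 6 of the 29 windows (20.7%), those of HSPA5, HSP90B1, CALR, CANX, CRELD2 and XBP1, and in 22 of all 27305 promoter windows (0.0806%). Since the members were chosen as known targets of this response, a higher share in their windows is built in and is no result of these data. CCACG alone, which is also the second part of the element, was present in 65.5% of the members' windows and in 37.9% of all windows. The letters TGACGTGG, the core of the element bound by spliced XBP1, which overlaps CCACG read on the other strand, were present in 3.45% of the members' windows, that of HYOU1 alone, and in 0.795% of all windows. The windows of HSPA5, HSP90B1, CALR and XBP1 are printed because each holds the whole element, and because these chaperones were lower in D308N than in shRPL3 cells while XBP1 was not lower there. Capitals mark CCAAT and CCACG of each element, or their reverse complements ATTGG and CGTGG. HSPA5 lies at chr9:125241294-125241593 on the minus strand, HSP90B1 at chr12:103930160-103930459 on the plus strand, CALR at chr19:12938359-12938658 on the plus strand and XBP1 at chr22:28800520-28800819 on the minus strand.
HSPA5: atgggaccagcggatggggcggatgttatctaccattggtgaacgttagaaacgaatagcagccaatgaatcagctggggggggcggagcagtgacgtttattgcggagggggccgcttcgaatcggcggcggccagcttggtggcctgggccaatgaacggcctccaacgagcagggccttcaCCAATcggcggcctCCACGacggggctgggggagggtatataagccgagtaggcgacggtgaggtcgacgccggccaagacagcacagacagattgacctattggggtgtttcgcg
HSP90B1: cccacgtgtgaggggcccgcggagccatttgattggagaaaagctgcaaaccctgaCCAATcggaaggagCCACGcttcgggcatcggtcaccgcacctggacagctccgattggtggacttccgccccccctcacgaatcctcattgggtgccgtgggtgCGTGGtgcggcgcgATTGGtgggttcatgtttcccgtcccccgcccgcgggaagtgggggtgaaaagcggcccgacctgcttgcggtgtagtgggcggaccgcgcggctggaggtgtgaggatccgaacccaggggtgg
CALR: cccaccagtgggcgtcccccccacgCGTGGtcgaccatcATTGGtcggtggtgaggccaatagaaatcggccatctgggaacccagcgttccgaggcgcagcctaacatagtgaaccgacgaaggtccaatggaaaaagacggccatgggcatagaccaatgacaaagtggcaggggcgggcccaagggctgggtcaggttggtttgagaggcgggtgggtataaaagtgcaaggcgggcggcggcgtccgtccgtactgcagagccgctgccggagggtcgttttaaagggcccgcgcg
XBP1: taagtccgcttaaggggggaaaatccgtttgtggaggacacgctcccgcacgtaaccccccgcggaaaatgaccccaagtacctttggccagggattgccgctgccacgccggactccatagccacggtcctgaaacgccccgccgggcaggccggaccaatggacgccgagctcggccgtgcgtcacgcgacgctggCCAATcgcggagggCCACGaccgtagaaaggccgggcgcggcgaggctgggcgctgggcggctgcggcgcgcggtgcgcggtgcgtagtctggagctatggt

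Every library summed to 1000000 TPM, which keeps no depth, so the depth behind these values is unknown. RPL3 averaged 536 ± 35.2 TPM in shRPL3 and 1570.2 ± 38.8 TPM in shScramble (SD, n = 3 each). The library of shRPL3 replicate 3 held 121 TPM of RPL3L, against 0.029 and 0.0353 TPM in the other shRPL3 libraries. Libraries fell into 2 kinds that the labels do not name, separated by the levels of 334 annotated pseudogenes. The second kind comprised 6 libraries, RPL3L_WT replicates 1 and 2, T189M replicates 1 and 2, G27D replicate 3 and R161W replicate 1, and in all construct libraries the ratio of the construct parts EBFP2 and rtTA3 split them the same way (1.43 to 1.57 in the second kind, 0.971 to 1.05 in the first). Between kinds 57.8% of all tested genes differed, and of the members 9 were higher and 14 lower in the second kind, with the largest difference for ERO1A (0.85 on the log2 scale). The fits therefore carry the kind as a term, and calls lost without it are named. Where both groups held first-kind libraries alone, leaving it out moves no fold change. These are shRPL3 against shScramble, D308N against D308V, and D308N, D308V, R343W and P291L against shRPL3. A call lost there comes from the spread shared by all groups in the fit, not from a kind difference between those groups. Of 12 cardiomyocyte markers, GATA4 was the one with a median of at least 1 TPM (2.25 TPM), and MYH6, MYH7, NKX2-5, MYL7 and NPPA had medians of 0. All 8 fibroblast and smooth muscle markers passed that level, COL1A1 with a median of 1144 TPM. Summed over their lists, the cardiomyocyte markers reached at most 6.79 TPM and the 3 endothelial markers at most 0.864 TPM in any library. Of 3 blood markers, PTPRC and HBB had medians of 0.236 and 0 TPM, and CD68, a lysosomal protein of macrophages that other cells make too, a median of 110.1 TPM. PTPRC and HBB reached at most 0.802 and 0.0865 TPM, so the sums of blood markers given below are almost wholly CD68. In bulk RNA, fewer cells of a type and less RNA per cell cannot be told apart.

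All 32 tested members differed among the 10 groups by the moderated F test of limma at an adjusted p of 0.05, the threshold used throughout, as did 78.8% of all tested genes. Since 1 TPM was added before taking log2, fold changes of low genes are understated, and p-values were adjusted over all tested genes. The most abundant member was CALR, with a mean of 875 TPM over the 30 libraries, and the least abundant tested one was ERN1, with 4.98 TPM. The range of the 10 group levels, highest minus lowest on the log2 scale, had a median of 0.57 over members and of 0.62 over all tested genes. It was widest for ERO1A (1.48), PDIA4 (1.26), ERN1 (1.22) and P4HB (1.22). In GENCODE release 29 (GRCh38), ERO1A lies at chr14:52639916-52695900, PDIA4 at chr7:149003062-149028641, ERN1 at chr17:64039142-64130819, HSPA5 at chr9:125234853-125241330 and XBP1 at chr22:28794555-28800597, all on the minus strand, and CALR at chr19:12938578-12944489 on the plus strand. These are whole genes, to whose transcripts the TPM belong. Summed over the 33 members, TPM averaged 4700.2 ± 111 in D308N, 5045 ± 17.5 in D308V, 4946 ± 96.3 in R343W, 4935 ± 100.001 in G27D, 5627 ± 19.0 in P291L, 6425 ± 276 in R161W, 6669 ± 210.4 in T189M, 5885 ± 92.4 in RPL3L_WT, 5814 ± 106 in shRPL3 and 6753 ± 93.6 in shScramble (SD, n = 3 each). Every D308N library had a lower sum than every library of the other groups, shScramble, T189M and R161W overlapped at the top, and R343W, G27D and D308V lay within their spread of one another. These sums are not adjusted for the library kind. R161W summed to 6742 TPM in its second-kind library and to 6285 and 6247 TPM in its first-kind ones. D308N was also the lowest group for 10 members, among them HSPA5, HSP90B1, CALR and all 5 disulfide enzymes.

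**Figure D1:**
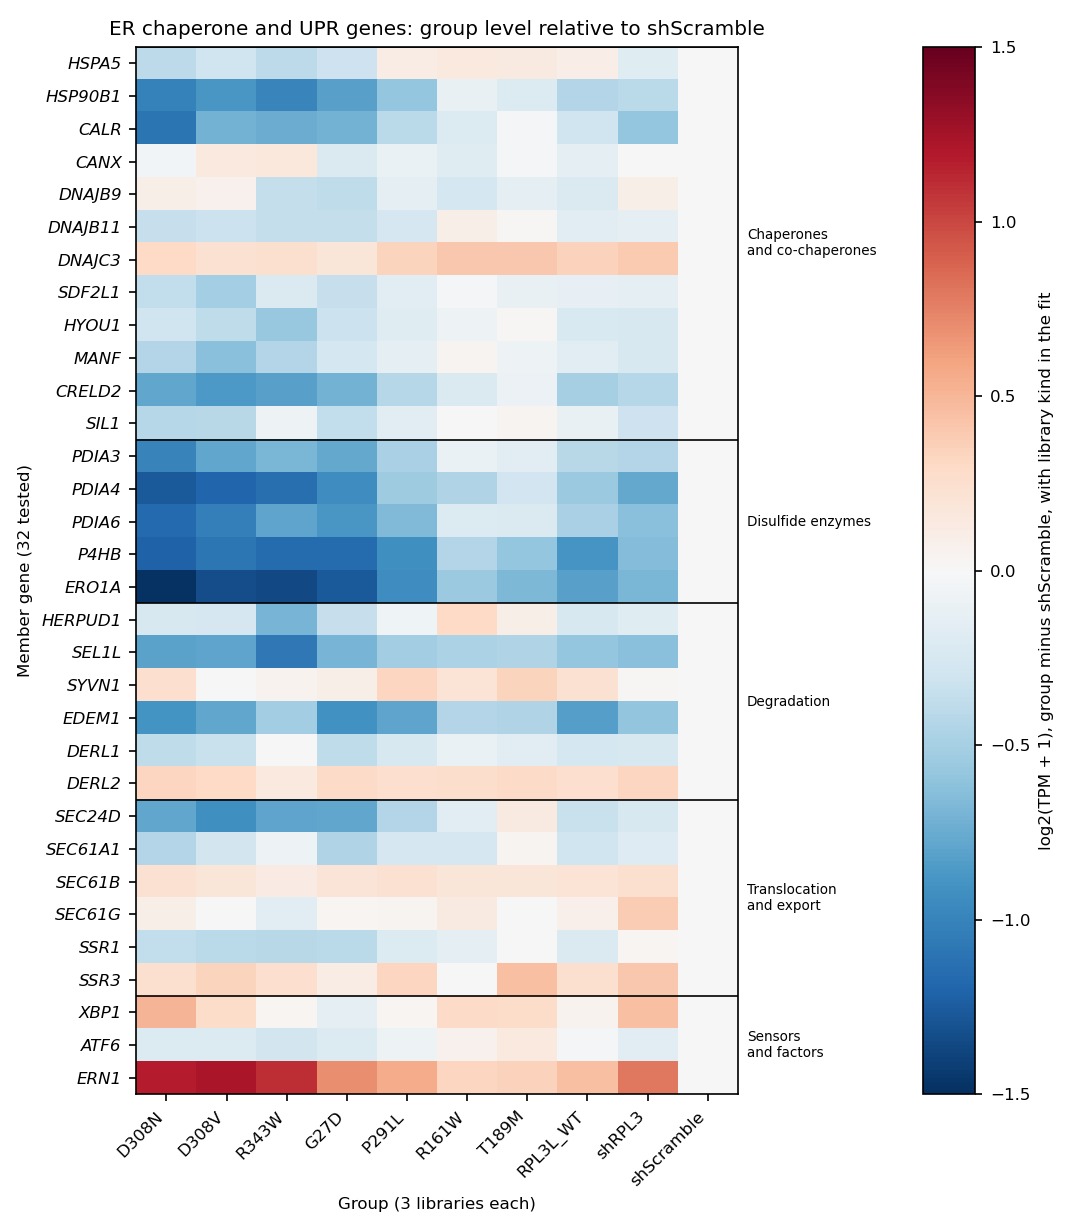
Group level of each of the 32 tested members minus its level in shScramble, on the log2(TPM + 1) scale with the library kind in the fit, with groups across and members down, ordered by role (red higher, blue lower). The disulfide enzymes are blue in every group left of shScramble, with ERO1A in D308N the deepest at a range of 1.48, and ERN1 is red in every group.

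The first comparison asks what the RPL3 hairpin did to these genes. In shRPL3 cells the enzymes that form disulfide bonds and the chaperones CALR, HSP90B1 and HSPA5 were lower than in shScramble cells, CANX did not pass, and ERN1, XBP1 and 2 small subunits of the protein import channel were higher. All 5 disulfide enzymes and 8 of 12 chaperones and co-chaperones fell, and 1 of these 12 rose. Over all roles 19 of the 32 tested members fell and 7 rose, and 48.9% of all tested genes passed the same test. The median log2 fold change was -0.19 over members and -0.0084 over all tested genes. All 6 libraries were of the first kind. The blood markers summed to 62.2 to 67.3 TPM in shRPL3, against 117 to 132 TPM in shScramble, and the part of this in the result was not tested. The fibroblast and smooth muscle sums of these groups overlapped.

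The summed TPM of the disulfide enzymes were 1012, 1015 and 1008 in the shRPL3 libraries, against 1523, 1506 and 1531 in the shScramble libraries. Every shRPL3 library lay below every shScramble library in these sums. PDIA4, a protein disulfide isomerase also called ERp72, had 89.3, 90.1 and 88.6 TPM in shRPL3, against 159.9, 150.2 and 149 TPM in shScramble, for a log2 fold change of -0.77 (adjusted p = 7.63e-15, SE 0.034). It was the largest fall among the members, and the libraries of the groups did not overlap. ERO1A, the oxidase that recharges these isomerases, had 31.4, 36.2 and 30.8 TPM in shRPL3, against 49.0, 56.7 and 54.1 TPM in shScramble, for a log2 fold change of -0.68 (adjusted p = 1.5e-08, SE 0.069). P4HB, the classical protein disulfide isomerase, had 309, 296 and 327 TPM in shRPL3, against 515, 468 and 476 TPM in shScramble, for a log2 fold change of -0.64 (adjusted p = 4.37e-12, SE 0.041). Neither gene overlapped between the groups. PDIA6 fell by nearly as much, with a log2 fold change of -0.63, and PDIA3, the isomerase that works with the lectin chaperones, by less, with -0.44 (adjusted p = 5.93e-07, or 0.0644 without the kind term).

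Among the chaperones, CALR, the soluble lectin that holds glycoproteins during folding, fell most. It had 746, 746 and 751 TPM in shRPL3, against 1135, 1114 and 1114 TPM in shScramble, for a log2 fold change of -0.58 (adjusted p = 1.37e-15, SE 0.024). The shRPL3 libraries stood close together and well below those of shScramble. CANX, its membrane-bound relative, had 477, 506 and 480.3 TPM in shRPL3, against 470.1, 505 and 485 TPM in shScramble, and the groups overlapped (log2 fold change 0.0029 with adjusted p = 0.974). HSP90B1, the HSP90 of the ER, had 667, 697 and 653 TPM in shRPL3, against 862, 915 and 902 TPM in shScramble, for a log2 fold change of -0.41 (adjusted p = 5.42e-08, SE 0.045). HSPA5, the ER chaperone BiP and the usual marker of the UPR, had 297, 309 and 303 TPM in shRPL3, against 339.5, 345 and 345 TPM in shScramble, a smaller fall of -0.18 (adjusted p = 0.000254, SE 0.037). In both genes all shRPL3 libraries were lower than all shScramble libraries. The stress-induced CRELD2 fell (-0.42 with adjusted p = 0.000131), as did HYOU1, which recharges HSPA5 with nucleotide (-0.25 with adjusted p = 0.00022). DNAJC3, a J-domain co-chaperone, was the one chaperone of the list that rose, with 13.3, 15.3 and 13.0 TPM in shRPL3, against 9.33, 10.3 and 11.4 TPM in shScramble (log2 fold change 0.39 with adjusted p = 0.000278). Its groups did not overlap. MANF, SIL1 and DNAJB11 also passed as lower, with log2 fold changes of -0.24, -0.32 and -0.13, but each lost its call without the kind term (adjusted p 0.325, 0.197 and 0.0715). They also lost it when libraries were left out, MANF without any single shRPL3 library or shScramble replicate 2 (adjusted p 0.05 to 0.0887), SIL1 without shRPL3 replicate 2 or shScramble replicate 1 or 2 (adjusted p 0.0653 to 0.109) and DNAJB11 without shRPL3 replicate 1 or 3 or shScramble replicate 3 (adjusted p 0.0508 to 0.149). DNAJB9 and SDF2L1 did not pass (0.09 with adjusted p = 0.431 and -0.15 with adjusted p = 0.328).

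The sensors and factors moved in the other direction, apart from ATF6. ERN1 had 5.22, 5.03 and 5.75 TPM in shRPL3, against 2.62, 2.69 and 2.69 TPM in shScramble, for a log2 fold change of 0.79 (adjusted p = 1.02e-06, SE 0.104) and the largest rise among the members. XBP1 had 93.7, 100.1 and 93.0 TPM in shRPL3, against 71.5, 67.7 and 69.7 TPM in shScramble, for a log2 fold change of 0.45 (adjusted p = 8.03e-10, SE 0.038). Neither overlapped between the groups. ATF6 had 79.5, 72.7 and 74.0 TPM in shRPL3, against 82.6, 86.9 and 84.1 TPM in shScramble, for a log2 fold change of -0.16 (adjusted p = 0.0141, SE 0.054). This call was lost without shRPL3 replicate 2 (adjusted p = 0.0667) and without shScramble replicate 2 (adjusted p = 0.0575). In the degradation machinery, SEL1L, the partner of the ubiquitin ligase HRD1, had 19.0, 19.1 and 19.2 TPM in shRPL3, against 28.3, 29.9 and 31.8 TPM in shScramble (log2 fold change -0.62 with adjusted p = 8.43e-07). EDEM1, which marks misfolded glycoproteins for disposal, had 8.38, 8.49 and 7.74 TPM in shRPL3, against 13.6, 14.1 and 11.0 TPM in shScramble (log2 fold change -0.59 with adjusted p = 4.47e-05). Both were lower in every shRPL3 library. DERL1 fell as well (-0.24 with adjusted p = 0.0021), whereas DERL2 rose (0.33 with adjusted p = 9.46e-05, 0.241 without the kind term), and SYVN1, the ligase HRD1 itself, and the scaffold HERPUD1 did not pass (0.014 and -0.18). In the translocation and export group, the channel subunits SEC61G and SEC61B rose (0.38 with adjusted p = 7.64e-05 and 0.24 with adjusted p = 0.000184), and so did SSR3, a subunit of the channel-associated TRAP complex (0.40 with adjusted p = 3.83e-08). The pore subunit SEC61A1 and the COPII coat gene SEC24D fell (-0.19 with adjusted p = 7.83e-05 and -0.24 with adjusted p = 0.00715), and SSR1 did not pass (0.027 with adjusted p = 0.682). Without the kind term SEC61B, SSR3 and SEC61A1 lost their calls at the same fold changes (adjusted p 0.281, 0.0667 and 0.0798). That fit called 14 members lower and 4 higher, and the fit without shRPL3 replicate 3 called 17 lower and 7 higher.

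**Figure D2:**
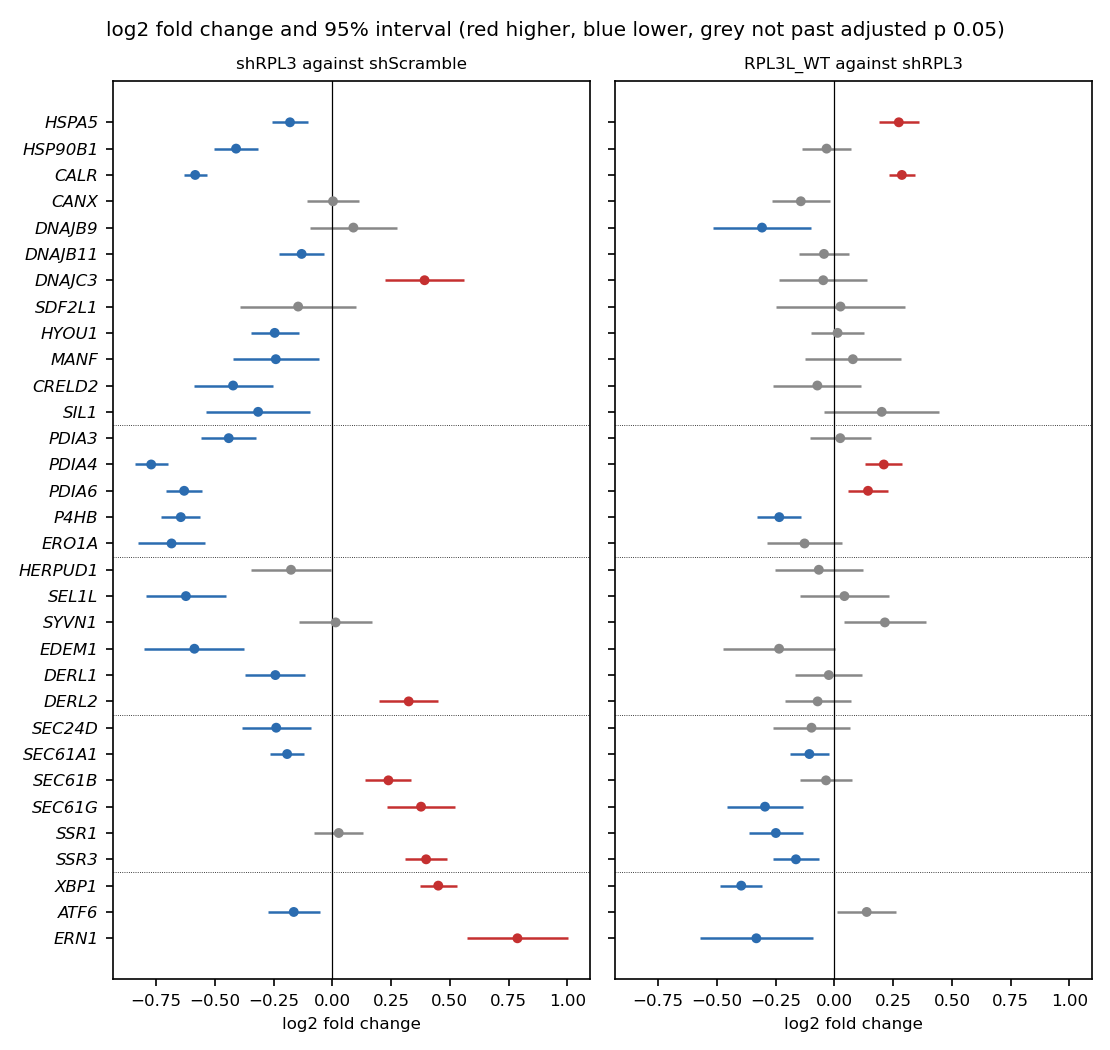
Log2 fold change of each tested member with its 95% confidence interval, for shRPL3 against shScramble and for RPL3L_WT against shRPL3 (red higher, blue lower, grey not past an adjusted p of 0.05). In the first panel 19 members are blue and 7 red, in the second 8 are blue and 4 red.

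Lists of further ER genes, outside the 33, were described by their counts. For shRPL3 against shScramble, 24.4% of all tested genes were higher and 24.5% lower. Of 29 other folding enzymes, 22 were lower in shRPL3 than in shScramble and 0 were higher (16 and 0 without the kind term). They included PDIA5 (-1.02 with adjusted p = 2.84e-07), a further disulfide isomerase, and FKBP9 (-0.79 with adjusted p = 1.13e-07), a prolyl isomerase. Of 14 tested genes of the sensors and the PERK branch, 7 were higher and 3 lower. ATF3, DDIT3 and PPP1R15A, which are known targets of ATF4, led those that were higher, with log2 fold changes of 1.45 (adjusted p = 7.53e-11), 0.86 (adjusted p = 1.31e-13) and 0.82 (adjusted p = 4.37e-14). ATF6B, a relative of ATF6, and MBTPS1, the protease that cleaves ATF6, were lower (-0.80 with adjusted p = 1.52e-09 and -0.61 with adjusted p = 1.95e-09). TRIB3, also an ATF4 target, was lower too (-0.22 with adjusted p = 0.0249). Of 21 other degradation genes 12 were lower, among them VCP, the ATPase that extracts proteins from the ER membrane (-0.65 with adjusted p = 3.96e-13), and 5 were higher, among them AUP1 (0.83 with adjusted p = 3.96e-13).

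The second comparison asks what RPL3L added to hairpin cells. Against shRPL3, by the fit with the kind term, RPL3L_WT cells had more CALR, HSPA5, PDIA4 and PDIA6 and less XBP1, ERN1 and P4HB. In all 4 members were higher and 8 lower, against a background of 26.4% of all tested genes, and the median log2 fold change was -0.046 over members and -0.099 over all tested genes. The fibroblast and smooth muscle markers summed to 5440.3 to 5785 TPM in RPL3L_WT, against 5029 to 5344 TPM in shRPL3, and the blood markers to 116 to 235 TPM in RPL3L_WT, against 62.2 to 67.3 TPM in shRPL3. RPL3 was at 445 and 439 TPM in the second-kind RPL3L_WT libraries and 673 TPM in the first-kind one, against 499.6 to 569.8 TPM in shRPL3. The fit with the kind term gave a log2 fold change of 0.36 (adjusted p = 7.24e-07). Only the first-kind library, replicate 3, lay above those of shRPL3, and the others lay below them. The part of these in the result was not tested. CALR had 1197, 1113 and 912 TPM in RPL3L_WT, against 746, 746 and 751 TPM in shRPL3, for a log2 fold change of 0.29 (adjusted p = 3.71e-08, SE 0.026). All RPL3L_WT libraries were above those of shRPL3, replicates 1 and 2, of the second kind, by more than replicate 3, of the first kind. HSPA5 had 374, 378 and 386 TPM in RPL3L_WT, against 297, 309 and 303 TPM in shRPL3, for a log2 fold change of 0.27 (adjusted p = 3.5e-05, SE 0.041) and 0.32 without the kind term (adjusted p = 7.76e-05). Its RPL3L_WT libraries of both kinds lay above all shRPL3 libraries. XBP1 had 57.2, 55.0 and 75.5 TPM in RPL3L_WT, against 93.7, 100.1 and 93.0 TPM in shRPL3, for a log2 fold change of -0.40 (adjusted p = 3.73e-07, SE 0.043). All RPL3L_WT libraries were lower, the first-kind replicate 3 by the least. ERN1 had 4.25, 3.46 and 3.70 TPM in RPL3L_WT, against 5.22, 5.03 and 5.75 TPM in shRPL3, for a log2 fold change of -0.33 (adjusted p = 0.0379, SE 0.117). This call was lost without shRPL3 replicate 1 or 3 and without RPL3L_WT replicate 2 or 3 (adjusted p 0.0604 to 0.263). ATF6 did not pass (0.14 with adjusted p = 0.0966) but was called higher with median-ratio scaling (0.24 with adjusted p = 0.00522).

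PDIA4 and PDIA6 were higher in RPL3L_WT (0.21 with adjusted p = 0.000268 and 0.14 with adjusted p = 0.0134) and P4HB lower (-0.23 with adjusted p = 0.000501). The PDIA4 libraries of these groups overlapped, and only the first-kind RPL3L_WT replicate 3 lay above every shRPL3 library. Without the kind term the log2 fold change of PDIA4 was 0.058. PDIA6 lost its call without RPL3L_WT replicate 3 (adjusted p = 0.29), and PDIA4 and P4HB lost theirs without the kind term, as did SEC61G (adjusted p 0.571, 0.0563 and 0.99). The translocation genes SEC61G, SSR1, SSR3 and SEC61A1 were lower (-0.30, -0.25, -0.16 and -0.11), as was the co-chaperone DNAJB9 (-0.31), and no degradation member passed. Calls were lost for SEC61A1 without RPL3L_WT replicate 1 or 2 or any single shRPL3 library (adjusted p 0.0604 to 0.119), DNAJB9 without RPL3L_WT replicate 1 or 2 or shRPL3 replicate 1 (adjusted p 0.0506 to 0.117) and SEC61G without RPL3L_WT replicate 3 (adjusted p 0.0674). With libraries scaled by the median ratio to a common reference, 6 members were higher and 1 lower, and the members' median turned to 0.058. The calls of ERN1, DNAJB9, P4HB, SEC61G, SSR1, SSR3 and SEC61A1 ended there. A fit on the 2 groups alone called 1 member, and without shRPL3 replicate 3, the library that held RPL3L, 4 members were higher and 6 lower. ATF4, the PERK-branch factor, was lower in RPL3L_WT than in shRPL3 (-0.72 with adjusted p = 5.65e-14), as was DDIT3 (-0.33 with adjusted p = 3.67e-05), and of the 14 tested genes of that list 1 was higher and 5 lower. Over all tested genes 6.27% were higher and 20.1% lower in RPL3L_WT.

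**Figure D3:**
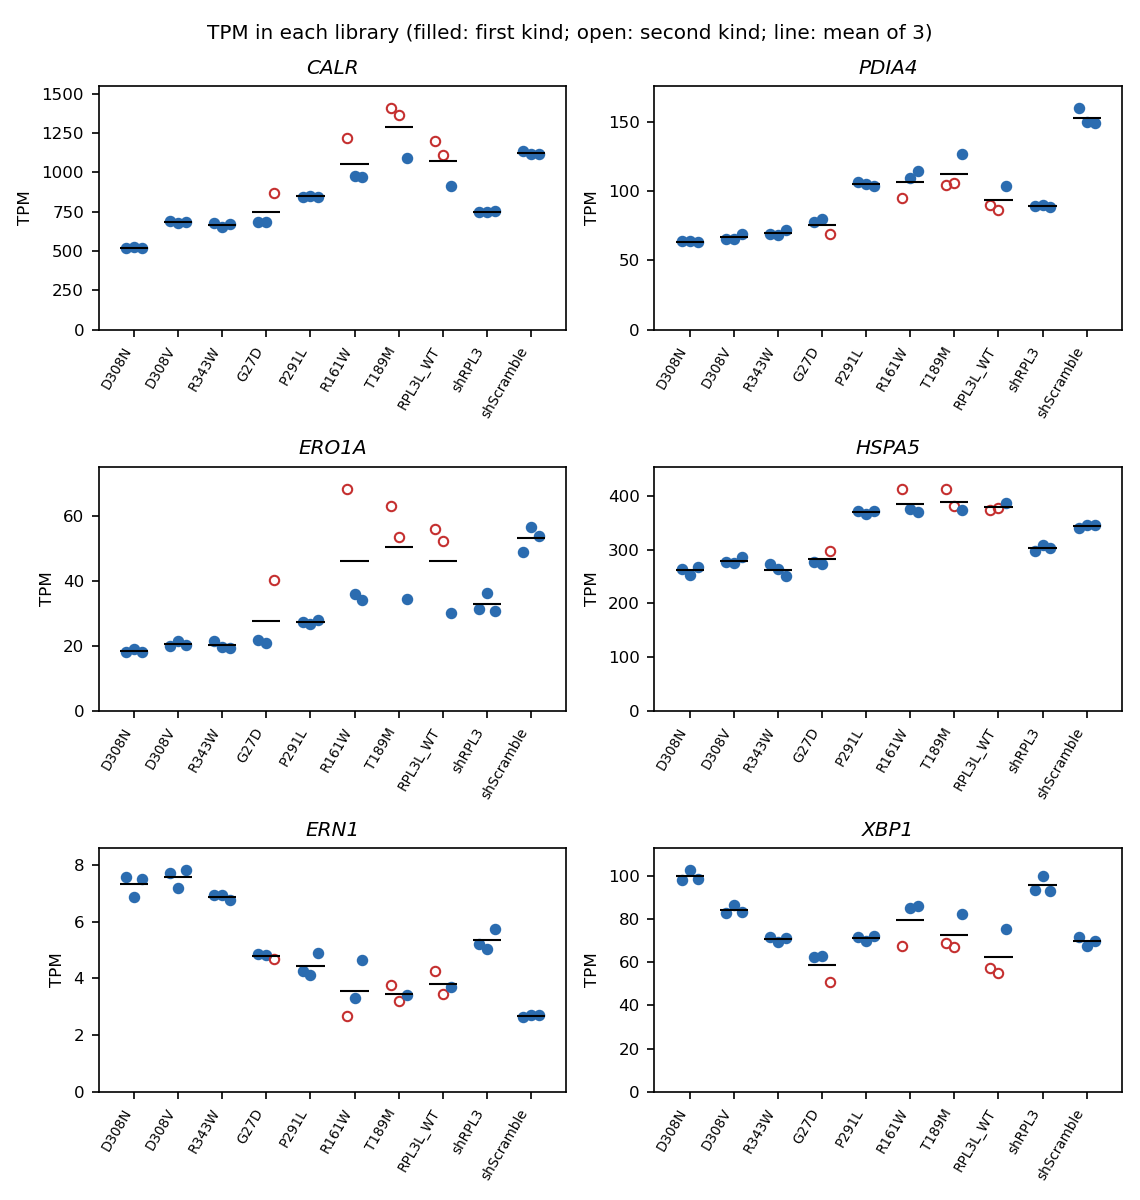
TPM of CALR, PDIA4, ERO1A, HSPA5, ERN1 and XBP1 in each of the 30 libraries, by group, with filled points for libraries of the first kind, open points for the second kind and a line for the mean of 3 libraries. The D308N libraries hold 520 to 524 TPM of CALR, below every other library, and ERO1A is higher in all open points than in the filled points of the same group.

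The variants D308N, D308V and R343W were set against shRPL3 first, since all of these libraries were of the first kind, and then against RPL3L_WT. The 3 comparisons with shRPL3 share its libraries, so likeness between them is in part built in. In each of them all 5 disulfide enzymes were lower, as were HSPA5, HSP90B1, CALR, CRELD2 and DNAJB11 among the chaperones, SEC24D, SEC61G and SSR1 in translocation and export, and ERN1 was higher. D308N had 16 members lower and 2 higher, D308V 17 lower and 2 higher and R343W 20 lower and 4 higher, and 33.4%, 32.1% and 35.5% of all tested genes passed in these comparisons. The members' median log2 fold changes were -0.21, -0.17 and -0.21 in that order, against -0.051, -0.073 and -0.057 over all tested genes. Fits without the kind term called 12 lower and 1 higher in D308N, 7 lower and 1 higher in D308V, and 14 lower and 2 higher in R343W. Fold changes were the same in those fits, where only the estimated spread, shared by all groups, differed. The calls that ended there were those of CRELD2, SYVN1, EDEM1, SEC61G and SSR3 in D308N, of HSPA5, CALR, CANX, PDIA3, SDF2L1, HYOU1, MANF, CRELD2, SEC61G, XBP1 and ERO1A in D308V, and of CALR, CANX, PDIA3, CRELD2, DERL2, SEC61A1, ERO1A and SSR3 in R343W. Without shRPL3 replicate 3 the counts were 17 lower and 2 higher in D308N, 15 lower and 1 higher in D308V, and 21 lower and 3 higher in R343W. RPL3 itself was at 680.1 to 714 TPM in D308N, 568 to 571 TPM in D308V and 724 to 737 TPM in R343W, against 499.6 to 569.8 TPM in shRPL3. The summed TPM of 8 fibroblast and smooth muscle markers also differed, at 4182 to 4419 in D308N, 4458 to 4752 in D308V and 4617 to 4812 in R343W, against 5029 to 5344 in shRPL3, and the blood markers summed to 72.9 to 80.4 in D308N, 96.3 to 99.8 in D308V and 144 to 153 in R343W, against 62.2 to 67.3 in shRPL3. The part of these in the result was not tested. Median-ratio scaling ended the calls of EDEM1 and SSR3 in D308N, of HSPA5, CALR, DNAJB11, HYOU1 and SDF2L1 in D308V, and of DERL2 and SSR3 in R343W.

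The sums of the disulfide enzymes were 703, 668 and 679.9 TPM in D308N, 763, 766 and 776 TPM in D308V and 833, 796 and 790.3 TPM in R343W, against 1012, 1015 and 1008 TPM in shRPL3. No variant library reached the lowest shRPL3 library. ERO1A had 17.97, 19.1 and 18.1 TPM in D308N, 20.0, 21.6 and 20.1 TPM in D308V and 21.7, 19.6 and 19.5 TPM in R343W, against 31.4, 36.2 and 30.8 TPM in shRPL3. The log2 fold changes were -0.80 (adjusted p = 3.77e-09, SE 0.069) for D308N, -0.65 (adjusted p = 1.31e-07, SE 0.069) for D308V and -0.67 (adjusted p = 6.13e-08, SE 0.069) for R343W, and the calls for D308V and R343W were lost without the kind term (adjusted p 0.077 and 0.0608). P4HB had 201, 213 and 212 TPM in D308N, 235, 223 and 231 TPM in D308V and 214, 212 and 229 TPM in R343W, against 309, 296 and 327 TPM in shRPL3. Its log2 fold changes were -0.57 (adjusted p = 1.14e-10), -0.43 (adjusted p = 1.57e-08) and -0.51 (adjusted p = 7.17e-10) in the same order of variants. All variant libraries were below all shRPL3 libraries for both genes. PDIA6 fell by more in D308N and D308V (-0.54 and -0.40) than in R343W (-0.17), a difference between variants that was not tested.

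CALR had 520.4, 524 and 522 TPM in D308N, 692, 676 and 686 TPM in D308V and 679.6, 654 and 670.2 TPM in R343W, against 746, 746 and 751 TPM in shRPL3. The log2 fold changes were -0.52 (adjusted p = 2.65e-14, SE 0.024) in D308N, -0.13 (adjusted p = 0.000221, SE 0.024) in D308V and -0.16 (adjusted p = 8.45e-06, SE 0.024) in R343W, those of D308V and R343W not past the threshold without the kind term (adjusted p 0.456 and 0.293). With median-ratio scaling that of D308V was lost too (-0.048 with adjusted p = 0.153). D308N stood far below the other variants, whose libraries lay just under those of shRPL3. HSP90B1 had 461, 413 and 448 TPM in D308N, 483, 489.5 and 486 TPM in D308V and 469.8, 455 and 423 TPM in R343W, against 667, 697 and 653 TPM in shRPL3. Its log2 fold changes were -0.61 (adjusted p = 2.24e-10), -0.47 (adjusted p = 2.46e-08) and -0.58 (adjusted p = 4.1e-10). All variant libraries were lower than the lowest shRPL3 library. HSPA5 had 263, 254 and 267 TPM in D308N, 277, 275 and 286 TPM in D308V and 272, 264 and 249.99 TPM in R343W, against 297, 309 and 303 TPM in shRPL3. Its falls were small, with log2 fold changes of -0.21 (adjusted p = 7.97e-05), -0.12 (adjusted p = 0.0174) and -0.21 (adjusted p = 9.33e-05), and that of D308V was lost without the kind term (adjusted p = 0.123), with median-ratio scaling (adjusted p = 0.391) and without D308V replicate 1 or 2 or shRPL3 replicate 2 (adjusted p 0.054 to 0.0714). CANX passed as higher in D308V and R343W (0.14 with adjusted p = 0.0455 and 0.16 with adjusted p = 0.0229) and not in D308N (-0.048 with adjusted p = 0.528). The call was lost for CANX without any single D308V library or shRPL3 replicate 1 or 3 (adjusted p 0.0653 to 0.13) and for CANX without R343W replicate 1 or shRPL3 replicate 1 or 3 (adjusted p 0.0676 to 0.119), and in D308V also for HYOU1 without D308V replicate 1 or 2 or shRPL3 replicate 2 or 3 (adjusted p 0.0537 to 0.204) and SDF2L1 without D308V replicate 1 or 2 or shRPL3 replicate 3 (adjusted p 0.0597 to 0.131).

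ERN1 had 7.57, 6.88 and 7.49 TPM in D308N, 7.70, 7.18 and 7.81 TPM in D308V and 6.94, 6.95 and 6.76 TPM in R343W, against 5.22, 5.03 and 5.75 TPM in shRPL3. All variant libraries exceeded all shRPL3 libraries, with log2 fold changes of 0.39 (adjusted p = 0.00511, SE 0.104), 0.44 (adjusted p = 0.00246, SE 0.104) and 0.32 (adjusted p = 0.0203, SE 0.104). The R343W call was lost without R343W replicate 2 or shRPL3 replicate 1 or 2 (adjusted p 0.0536 to 0.0757). XBP1 had 98.3, 103 and 98.7 TPM in D308N, 83.0, 86.7 and 83.1 TPM in D308V and 71.5, 69.6 and 71.4 TPM in R343W, against 93.7, 100.1 and 93.0 TPM in shRPL3. It was lower in R343W (-0.43 with adjusted p = 5.68e-09) and by less in D308V (-0.18 with adjusted p = 0.000852, 0.261 without the kind term), and in D308N it did not pass (0.064 with adjusted p = 0.215) but was called higher with median-ratio scaling (0.12 with adjusted p = 0.0146). The D308N libraries overlapped those of shRPL3. ATF6 passed in none of these comparisons, with adjusted p of 0.584, 0.612 and 0.131. SEC24D, which carries cargo out of the ER, had 25.4, 22.6 and 23.2 TPM in D308N, 20.2, 20.5 and 23.3 TPM in D308V and 25.9, 23.3 and 21.3 TPM in R343W, against 35.4, 35.2 and 34.1 TPM in shRPL3. Its log2 fold changes were -0.54 (adjusted p = 2.31e-06), -0.69 (adjusted p = 7.36e-08) and -0.55 (adjusted p = 1.46e-06), with no overlap. Of the degradation members, R343W had lower HERPUD1, SEL1L and DERL2 (-0.52 with adjusted p = 2.26e-05, -0.45 with adjusted p = 0.000143 and -0.18 with adjusted p = 0.0211) and higher DERL1 (0.24 with adjusted p = 0.00401), D308N had higher SYVN1 (0.24 with adjusted p = 0.016) and lower EDEM1 (-0.30 with adjusted p = 0.0251), and none passed in D308V. When libraries were left out, calls were lost for SYVN1 without D308N replicate 1 or shRPL3 replicate 1 (adjusted p 0.05 to 0.0624) and EDEM1 without D308N replicate 1 or shRPL3 replicate 1 or 2 (adjusted p 0.0685 to 0.166) in D308N, and for DERL2 without R343W replicate 1 or 2 or shRPL3 replicate 1 or 2 (adjusted p 0.0571 to 0.0847) and SEC61A1 without R343W replicate 3 or shRPL3 replicate 2 (adjusted p 0.0527 to 0.0617) in R343W. DNAJB9, the co-chaperone ERdj4, was lower in R343W (-0.44 with adjusted p = 0.000435) and did not pass in D308N or D308V (-0.0034 with adjusted p = 0.984 and -0.024 with adjusted p = 0.875).

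**Figure D4:**
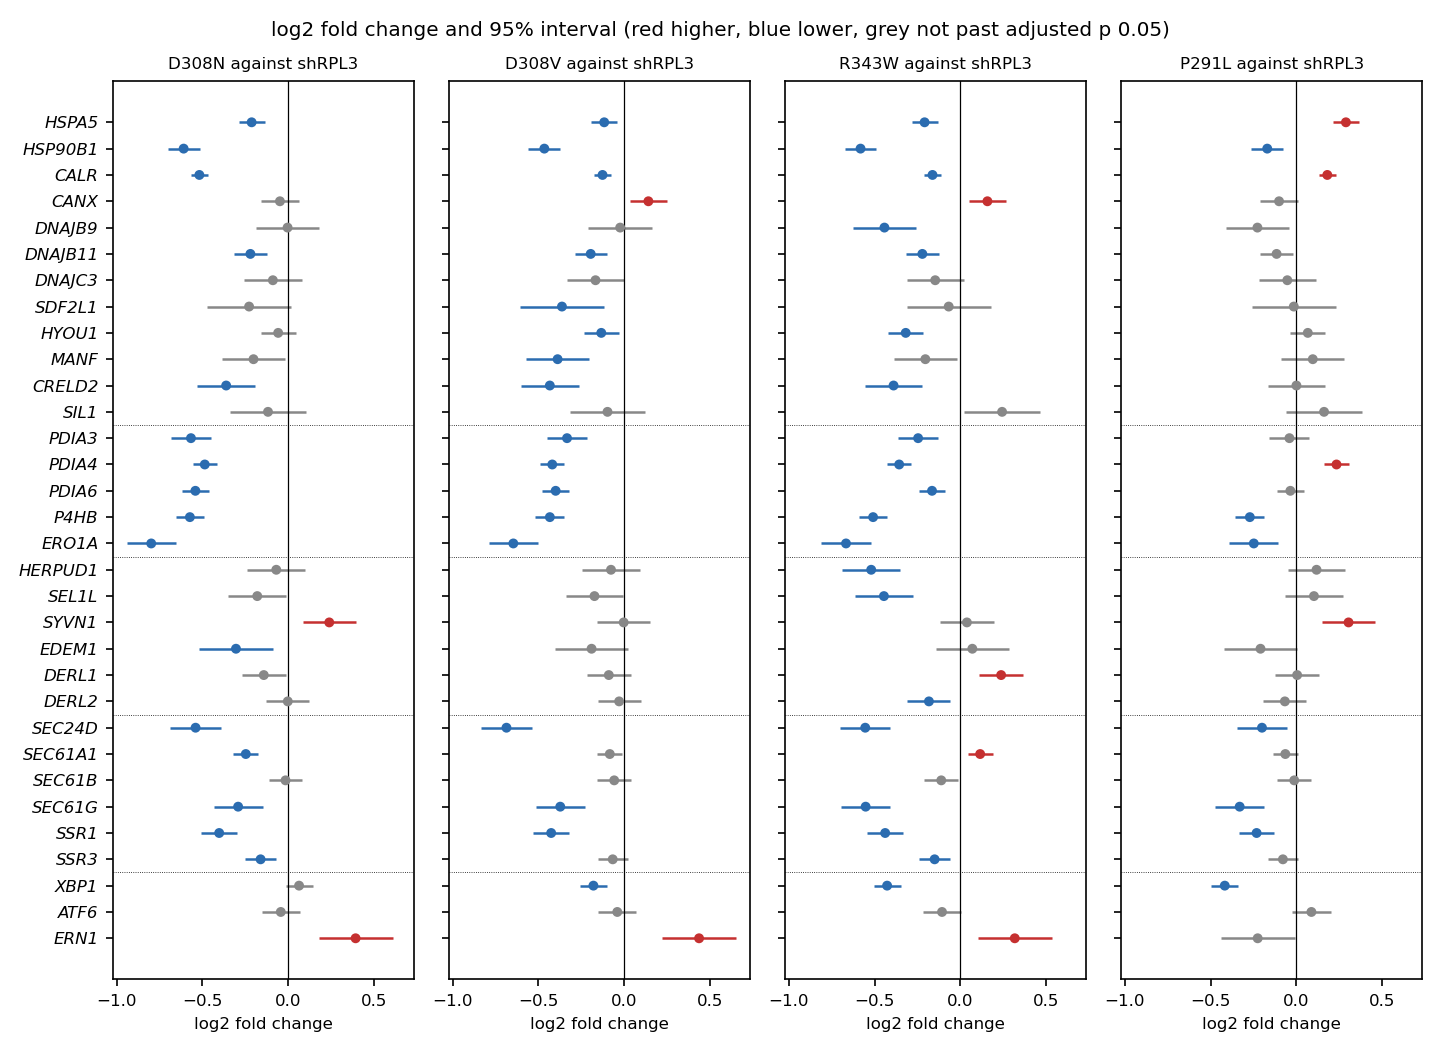
Log2 fold change of each tested member with its 95% confidence interval, for D308N, D308V, R343W and P291L each against shRPL3 (red higher, blue lower, grey not past an adjusted p of 0.05). All 5 disulfide enzymes are blue in the first 3 panels, and in the P291L panel 4 members are red and 7 blue.

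Against RPL3L_WT the same variants had 16 members lower and 3 higher in D308N, 16 lower and 4 higher in D308V, and 18 lower and 5 higher in R343W, with 30.3%, 28.9% and 31.4% of all tested genes passing. The kind term matters here, since 2 of the 3 RPL3L_WT libraries were of the second kind and all variant libraries of the first. Without it 12 were lower and 4 higher in D308N, 12 lower and 5 higher in D308V, and 15 lower and 5 higher in R343W. The members' median log2 fold changes were -0.16, -0.18 and -0.22, against 0.041, 0.018 and 0.038 over all tested genes. All 5 disulfide enzymes were lower in each variant with and without the term, whereas DNAJB11, CRELD2 and SSR1 lost their calls in each without it, SEC61A1 and ATF6 in D308N, and SDF2L1, HYOU1 and ATF6 in D308V. The fibroblast and smooth muscle markers, at 5440.3 to 5785 TPM in RPL3L_WT, were lower in these variants too, and the blood markers, at 116 to 235 TPM in RPL3L_WT, were lower in D308N and D308V and overlapped in R343W. RPL3 was at 445 and 439 TPM in the second-kind RPL3L_WT libraries and 673 TPM in the first-kind one. D308V, at 568 to 571 TPM, was lower by the fit with the kind term (-0.27 with adjusted p = 1.82e-05), though it lay above the second-kind libraries. The part of these in the result was not tested. CALR, at 1197, 1113 and 912 TPM in RPL3L_WT, was the largest fall of D308N, with -0.80 (adjusted p = 2.9e-16, SE 0.026), and PDIA4, at 89.8, 86.5 and 104 TPM in RPL3L_WT, that of D308V and R343W, with -0.63 (adjusted p = 8.93e-12, SE 0.038) and -0.57 (adjusted p = 6.17e-11, SE 0.038). For both genes every variant library was below every RPL3L_WT library of either kind. HSPA5 had log2 fold changes of -0.49 (adjusted p = 2.73e-09, SE 0.041), -0.39 (adjusted p = 1.16e-07, SE 0.041) and -0.48 (adjusted p = 4.01e-09, SE 0.041). ERN1 had 0.73 (adjusted p = 3.97e-05, SE 0.117), 0.77 (adjusted p = 2.16e-05, SE 0.117) and 0.65 (adjusted p = 0.000148, SE 0.117), and every variant library exceeded the RPL3L_WT libraries. XBP1 was higher in D308N and D308V (0.46 with adjusted p = 1.27e-08 and 0.22 with adjusted p = 0.000422) and did not pass in R343W (-0.03 with adjusted p = 0.641).

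ATF6 passed as lower in each against RPL3L_WT (-0.18 with adjusted p = 0.0258, -0.18 with adjusted p = 0.0289 and -0.24 with adjusted p = 0.00316), and each of these calls was lost when libraries were left out. In D308N this was so for ATF6 without D308N replicate 2 or 3 or RPL3L_WT replicate 3 (adjusted p 0.0794 to 0.285), in D308V for ATF6 without D308V replicate 1 or 2 or RPL3L_WT replicate 3 (adjusted p 0.0647 to 0.291) and in R343W for ATF6 without RPL3L_WT replicate 3 (adjusted p 0.0783). HERPUD1 and SEL1L were lower in R343W (-0.45 with adjusted p = 0.000483 and -0.49 with adjusted p = 0.000225), while in D308N they had -0.0027 (adjusted p = 0.987) and -0.22 (adjusted p = 0.0686). MANF, a stress-induced secreted factor, was lower in D308V by most (-0.47 with adjusted p = 0.000857), and CANX was higher in D308V and R343W (0.28 with adjusted p = 0.000762 and 0.30 with adjusted p = 0.000388). SEC61A1 and DERL1 were higher in R343W (0.22 with adjusted p = 0.000131 and 0.26 with adjusted p = 0.00524). EDEM1 passed there too (0.31 with adjusted p = 0.0462). Further calls against RPL3L_WT were lost when a single library was left out. In R343W they were those of PDIA3 without RPL3L_WT replicate 3 (adjusted p 0.0626), EDEM1 without R343W replicate 1 or 2 or any single RPL3L_WT library (adjusted p 0.0512 to 0.132), MANF without R343W replicate 2 or 3 or RPL3L_WT replicate 1 or 3 (adjusted p 0.0571 to 0.231), SEC61G without R343W replicate 3 (adjusted p 0.0751), DNAJB11 without RPL3L_WT replicate 3 (adjusted p 0.0529) and SSR1 without R343W replicate 3 or RPL3L_WT replicate 3 (adjusted p 0.0536 to 0.206). In D308N they were those of DNAJB9 without D308N replicate 2 or 3 or RPL3L_WT replicate 2 (adjusted p 0.0537 to 0.0592), MANF without D308N replicate 2 or RPL3L_WT replicate 1 or 3 (adjusted p 0.118 to 0.247), CRELD2 without D308N replicate 1 or 3 (adjusted p 0.0533 to 0.121), SIL1 without D308N replicate 2 or 3 or RPL3L_WT replicate 2 or 3 (adjusted p 0.0719 to 0.675), SEC61A1 without RPL3L_WT replicate 3 (adjusted p 0.227), DNAJB11 without RPL3L_WT replicate 3 (adjusted p 0.059) and SSR1 without D308N replicate 1 or 2 or RPL3L_WT replicate 2 or 3 (adjusted p 0.0677 to 0.409). In D308V they were those of DNAJB9 without D308V replicate 2 or 3 or RPL3L_WT replicate 1 or 2 (adjusted p 0.0609 to 0.162), HYOU1 without D308V replicate 1 or 2 or RPL3L_WT replicate 1 or 3 (adjusted p 0.0572 to 0.217), SDF2L1 without D308V replicate 1 or 2 or RPL3L_WT replicate 2 (adjusted p 0.0676 to 0.134), DNAJB11 without D308V replicate 1 or 3 or RPL3L_WT replicate 1 or 3 (adjusted p 0.0511 to 0.107) and SSR1 without D308V replicate 1 or RPL3L_WT replicate 3 (adjusted p 0.0814 to 0.268).

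In the list of the sensors and the PERK branch, more genes were higher than lower in these variants. Of its 14 tested genes, 9 were higher and 2 lower in D308N, 9 higher and 3 lower in D308V, and 7 higher and 2 lower in R343W, each against RPL3L_WT, and against shRPL3 8 were higher and 2 lower, 9 higher and 1 lower, and 9 higher and 1 lower. Over all tested genes 17.5%, 16.2% and 18.8% were higher and 12.8%, 12.7% and 12.6% lower against RPL3L_WT, in that order of variants. Against shRPL3 the shares were 11.2%, 9.67% and 12.7% higher and 22.2%, 22.4% and 22.8% lower. TRIB3 averaged 31.9 TPM in D308N, 36.1 TPM in D308V and 34.1 TPM in R343W, against 13.6 TPM in shRPL3, log2 fold changes of 1.18 (adjusted p = 6.17e-11), 1.35 (adjusted p = 4.44e-12) and 1.27 (adjusted p = 1.07e-11). CHAC1, a further ATF4 target, was higher in D308V than in shRPL3 (1.15 with adjusted p = 1.62e-08) and in D308N (0.69 with adjusted p = 2.48e-05). Against RPL3L_WT, PPP1R15A, which restores translation after PERK signalling, had log2 fold changes of 0.90 (adjusted p = 2.25e-13), 1.18 (adjusted p = 3.01e-15) and 0.99 (adjusted p = 6.17e-14). MBTPS1 was lower in all of them than in shRPL3, with log2 fold changes of -0.41 (adjusted p = 2.63e-06), -0.42 (adjusted p = 2.43e-06) and -0.58 (adjusted p = 1.21e-08). Among 29 other folding enzymes, 18 were lower and 0 higher in D308N and 13 lower and 0 higher in D308V against RPL3L_WT, led by QSOX1 in D308N (-0.87 with adjusted p = 9.92e-12) and PDIA5 in D308V (-0.78 with adjusted p = 0.000152), and 6 were lower and 3 higher in R343W. Without the kind term these counts were 11 lower and 1 higher, 8 lower and 3 higher, and 2 lower and 1 higher.

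D308N and D308V change the same residue of RPL3L to asparagine or to valine, and they were compared directly. Levels of 7 members were lower in D308N than in D308V and 2 were higher, and 8.26% of all tested genes passed. CALR had 520.4, 524 and 522 TPM in D308N, against 692, 676 and 686 TPM in D308V, for a log2 fold change of -0.39 (adjusted p = 1.53e-10, SE 0.024). It passed in every alternative fit, with an adjusted p of 0.0498 without the kind term. Each D308N library was below each D308V library, with almost no spread within D308N. XBP1 had 98.3, 103 and 98.7 TPM in D308N, against 83.0, 86.7 and 83.1 TPM in D308V, for a log2 fold change of 0.24 (adjusted p = 0.000208, SE 0.038). All D308N libraries were higher, and the call was lost without the kind term (adjusted p = 0.301). PDIA3 had 273, 229.8 and 244 TPM in D308N, against 286, 297 and 293 TPM in D308V (log2 fold change -0.23 with adjusted p = 0.011), and lost its call without the kind term (adjusted p = 0.717) and without D308N replicate 2 or 3 (adjusted p 0.0506 to 0.0893). SEC61A1 was lower (-0.16 with adjusted p = 0.00505) and its call was lost without the kind term (adjusted p = 0.46). SYVN1 was higher (0.24 with adjusted p = 0.0466). Calls were also lost for SYVN1 without any single D308N library or D308V replicate 2 or 3 (adjusted p 0.0945 to 0.211), CANX without D308N replicate 2 or 3 or D308V replicate 2 or 3 (adjusted p 0.0746 to 0.155), HSP90B1 without D308N replicate 2 or 3 or any single D308V library (adjusted p 0.0842 to 0.266), PDIA6 without D308N replicate 2 or 3 or D308V replicate 2 or 3 (adjusted p 0.0518 to 0.0886) and P4HB without any single D308N library or D308V replicate 1 or 3 (adjusted p 0.0511 to 0.132). With median-ratio scaling 8 members were lower and 1 higher, and without the kind term 1 was lower and 0 higher. Fibroblast and smooth muscle markers summed to 4182 to 4419 TPM in D308N, against 4458 to 4752 TPM in D308V, and blood markers to 72.9 to 80.4 TPM in D308N, against 96.3 to 99.8 TPM in D308V. RPL3 was higher in D308N than in D308V (0.29 with adjusted p = 1.08e-05). The part of these in the result was not tested. HSPA5, ATF6 and ERN1 did not pass (-0.10 with adjusted p = 0.115, -0.0024 with adjusted p = 0.991 and -0.043 with adjusted p = 0.872), and HSPA5 was called lower with median-ratio scaling (-0.12 with adjusted p = 0.0178), where SYVN1 lost its call.

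In P291L cells 2 of the 32 tested members differed from RPL3L_WT cells. PDIA6 and CALR passed as lower (-0.18 with adjusted p = 0.0231 and -0.11 with adjusted p = 0.0351), 0 members were higher, and 1.98% of all tested genes passed. The fibroblast and smooth muscle markers summed to 5849 to 5939 TPM in P291L, against 5440.3 to 5785 TPM in RPL3L_WT, and the part of this in the result was not tested. PDIA6 had 209.7, 200.1 and 207 TPM in P291L, against 231, 223 and 244 TPM in RPL3L_WT, with every P291L library below every RPL3L_WT library. Its call was lost without RPL3L_WT replicate 3 or P291L replicate 2 or 3 (adjusted p 0.0567 to 0.27). CALR had 843, 852 and 845 TPM in P291L, all below the RPL3L_WT libraries, and lost its call without the kind term (adjusted p = 0.0684) and without RPL3L_WT replicate 1 or 3 or any P291L library (adjusted p 0.0746 to 0.11). HSPA5, XBP1, ATF6 and ERN1 did not pass (adjusted p 0.928, 0.892, 0.79 and 0.761). A p over the threshold does not show equal levels: the confidence interval of the log2 fold change was -0.07 to 0.10 for HSPA5 and -0.14 to 0.35 for ERN1.

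Set against shRPL3, where all libraries were of the first kind, P291L had 4 members higher and 7 lower, against a background of 35.8%, and a median of -0.047 over members and -0.10 over all tested genes. HSPA5 had 373, 366 and 372 TPM in P291L, against 297, 309 and 303 TPM in shRPL3, for a log2 fold change of 0.29 (adjusted p = 1.71e-06, SE 0.037). PDIA4 had 106, 105 and 104 TPM in P291L, against 89.3, 90.1 and 88.6 TPM in shRPL3, for a log2 fold change of 0.23 (adjusted p = 1.02e-05, SE 0.034). For both genes, and for CALR (0.18 with adjusted p = 2.59e-06), every P291L library was higher. SYVN1 was higher as well (0.30 with adjusted p = 0.00274). XBP1 had 71.9, 69.8 and 72.2 TPM in P291L, against 93.7, 100.1 and 93.0 TPM in shRPL3, and all P291L libraries were lower, for a log2 fold change of -0.42 (adjusted p = 1.42e-08, SE 0.038). SEC61G, P4HB and ERO1A were the next largest falls (-0.33 with adjusted p = 0.000611, -0.27 with adjusted p = 1.39e-05 and -0.25 with adjusted p = 0.00673), and calls were lost for ERO1A without shRPL3 replicate 2 (adjusted p 0.0651) and SEC24D without any single P291L library or shRPL3 replicate 1 or 2 (adjusted p 0.0522 to 0.0944). ERN1 and ATF6 did not pass (-0.23 with adjusted p = 0.0964 and 0.087 with adjusted p = 0.219), but ATF6 was called higher with median-ratio scaling (0.20 with adjusted p = 0.00741). With median-ratio scaling the members were split as 8 higher and 3 lower with a median of 0.060 and the calls of ERO1A, SSR1, SEC24D and HSP90B1 ended, and without the kind term 2 were higher, HSPA5 and PDIA4, and 2 lower, XBP1 and P4HB. Without shRPL3 replicate 3, 4 were higher and 8 lower. Fibroblast and smooth muscle markers summed to 5849 to 5939 TPM in P291L, against 5029 to 5344 TPM in shRPL3, blood markers to 104 to 116 TPM in P291L, against 62.2 to 67.3 TPM in shRPL3, and RPL3 was at 658 to 685 TPM in P291L, against 499.6 to 569.8 TPM in shRPL3. The part of these in the result was not tested. ATF4 and DDIT3 of the PERK branch were lower in P291L than in shRPL3 (-0.57 with adjusted p = 1.47e-13 and -0.48 with adjusted p = 1.31e-08).

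The groups G27D, R161W and T189M each mixed both kinds of library, so they were compared with RPL3L_WT, which mixed them too, and T189M had the same mixture as RPL3L_WT. In G27D, 14 members were lower and 0 higher, with 10.3% of all tested genes passing and a median of -0.17 over members against 0.0037 over all. All 5 disulfide enzymes fell, with HSPA5, CALR, HSP90B1 and DNAJB11 of the chaperones and SEC24D, SEC61A1 and SSR1 in translocation and export. HSPA5 had 277, 274 and 297 TPM in G27D, against 374, 378 and 386 TPM in RPL3L_WT, for a log2 fold change of -0.40 (adjusted p = 9.8e-08, SE 0.038) and -0.43 without the kind term (adjusted p = 1.58e-05). Every G27D library was lower than every RPL3L_WT library. CALR had 682 and 687 TPM in the first-kind G27D libraries and 868 TPM in the second-kind one, against 912 TPM in the first-kind RPL3L_WT library and 1197 and 1113 TPM in the second-kind ones, for a log2 fold change of -0.41 (adjusted p = 6.17e-11, SE 0.024). Within each kind G27D was the lower. PDIA6 had 173, 175 and 186 TPM in G27D, against 231, 223 and 244 TPM in RPL3L_WT, with no overlap and a log2 fold change of -0.39 (adjusted p = 2.21e-07, SE 0.038). ERO1A and SEC24D had log2 fold changes of -0.45 (adjusted p = 0.000135) and -0.45 (adjusted p = 0.000204), ERO1A without a call when the kind term was left out (adjusted p = 0.109). XBP1 and ATF6 passed as lower (-0.19 with adjusted p = 0.00196 and -0.18 with adjusted p = 0.0399) but not without the kind term (adjusted p 0.696 and 0.166) or without RPL3L_WT replicate 3 (adjusted p 0.0517 and 0.264), and ERN1 did not pass (0.24 with adjusted p = 0.175). Without the kind term HSPA5, CALR, PDIA4, PDIA6, P4HB and SEC24D, 6 members, were lower and 0 higher, and without RPL3L_WT replicate 3 the number past the threshold was 9. Calls were also lost for DNAJB11 without G27D replicate 2 or RPL3L_WT replicate 3 (adjusted p 0.065 to 0.0793), SEC61A1 without RPL3L_WT replicate 3 (adjusted p 0.12) and SSR1 without G27D replicate 2 or 3 or RPL3L_WT replicate 2 or 3 (adjusted p 0.0523 to 0.22). Fibroblast and smooth muscle markers summed to 4417 to 4694 TPM in G27D, against 5440.3 to 5785 TPM in RPL3L_WT, and the part of this in the result was not tested. Of 29 other folding enzymes 16 were lower and 0 higher (5 and 0 without the term), against 6.02% of all tested genes lower and 4.31% higher.

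In R161W cells 13 members were higher and 1 lower than in RPL3L_WT cells, against a background of 25% of all tested genes, with medians of 0.11 over members and 0.054 over all. Without the kind term 8 were higher and 0 lower, and with median-ratio scaling 8 were higher and 1 lower, the calls of CRELD2, ERO1A, HYOU1, PDIA4 and CALR ending there. HERPUD1, a membrane scaffold of the degradation machinery, had 84.7 and 78.9 TPM in the first-kind R161W libraries and 105 TPM in the second-kind one, against 63.0 TPM in the first-kind RPL3L_WT library and 67.5 and 67.4 TPM in the second-kind ones, for a log2 fold change of 0.55 (adjusted p = 4.21e-05, SE 0.084). P4HB had 384, 357 and 367 TPM in R161W, against 283, 293 and 264 TPM in RPL3L_WT, for a log2 fold change of 0.44 (adjusted p = 3.64e-08, SE 0.042) and 0.40 without the kind term (adjusted p = 9.12e-05). Neither gene overlapped between the groups. HSP90B1 had 828 and 803 TPM in the first-kind R161W libraries and 723 TPM in the second-kind one, against 683 TPM in the first-kind RPL3L_WT library and 557 and 545 TPM in the second-kind ones, for a log2 fold change of 0.33 (adjusted p = 1.33e-05, SE 0.046). EDEM1 was higher (0.38 with adjusted p = 0.0101). Calls were lost for EDEM1 without R161W replicate 3 (adjusted p 0.0613), CALR without RPL3L_WT replicate 2 (adjusted p 0.0675), CRELD2 without R161W replicate 2 or RPL3L_WT replicate 3 (adjusted p 0.0547 to 0.132), ERO1A without R161W replicate 1 (adjusted p 0.106), HYOU1 without R161W replicate 2 or 3 or RPL3L_WT replicate 2 or 3 (adjusted p 0.0527 to 0.105) and PDIA4 without R161W replicate 1 or 3 or RPL3L_WT replicate 2 or 3 (adjusted p 0.0629 to 0.0734). PDIA6, DNAJB11 and XBP1 were higher with and without the kind term (0.28 with adjusted p = 8.39e-06, 0.26 with adjusted p = 0.000294 and 0.24 with adjusted p = 0.000104 with it). PDIA3, ERO1A, PDIA4, CALR and CRELD2 were called with the term and not without it (adjusted p 0.721, 0.962, 0.0892, 0.887 and 0.0554). SSR3 was the one member lower (-0.23 with adjusted p = 0.000492, 0.901 without the term). HSPA5, ATF6 and ERN1 did not pass (0.047 with adjusted p = 0.396, 0.093 with adjusted p = 0.239 and -0.14 with adjusted p = 0.39), although ERN1 did without R161W replicate 3 (adjusted p = 0.0425). RPL3 itself was at 1686 and 1570 TPM in the first-kind R161W libraries and 1059 TPM in the second-kind one. RPL3L_WT had 439 to 673 TPM, for a log2 fold change of 1.25, and shScramble, of the first kind alone, 1534 to 1611 TPM. The part of this RPL3 level in the result was not tested.

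T189M cells had 17 members higher and 0 lower than RPL3L_WT, with 10.6% of all tested genes passing and medians of 0.18 over members and 0.043 over all. Here the fold change is the same with and without the kind term, but without it 5 members passed. First-kind libraries alone leave only replicate 3 of T189M and of RPL3L_WT. The log2 fold changes there were 0.36 for SEC24D, 0.30 for P4HB, 0.20 for PDIA6 and 0.23 for HYOU1. Median-ratio scaling ended the calls of ATF6 and DNAJB11. SEC24D had 44.6 TPM in the first-kind T189M library and 44.9 and 38.5 TPM in the second-kind ones, against 34.5 TPM in the first-kind RPL3L_WT library and 27.9 and 29.3 TPM in the second-kind ones, for a log2 fold change of 0.47 (adjusted p = 0.000139, SE 0.071). SEC61A1 had 248 TPM in the first-kind T189M library and 204 and 207 TPM in the second-kind ones, against 202 TPM in the first-kind RPL3L_WT library and 160.2 and 158 TPM in the second-kind ones, for a log2 fold change of 0.34 (adjusted p = 9.7e-07, SE 0.035). Within each kind T189M was the higher for both genes. P4HB, PDIA6 and HYOU1 also passed in both fits (0.30 with adjusted p = 3.5e-05, 0.27 with adjusted p = 4.26e-05 and 0.25 with adjusted p = 0.00185). CRELD2, EDEM1, HERPUD1, CALR and PDIA4 passed with the term (0.40, 0.37, 0.33, 0.26 and 0.27) and had adjusted p of 0.205, 0.344, 0.223, 0.212 and 0.0704 without it. HSP90B1, PDIA3, DNAJB11, SSR1 and SSR3 were likewise called with the term alone. Calls were lost for ATF6 without T189M replicate 1 or 3 or RPL3L_WT replicate 1 or 2 (adjusted p 0.0524 to 0.218), DNAJB11 without T189M replicate 1 (adjusted p 0.0571), EDEM1 without T189M replicate 1 or 2 or RPL3L_WT replicate 1 (adjusted p 0.0602 to 0.0793) and HERPUD1 without RPL3L_WT replicate 1 or 2 (adjusted p 0.0542 to 0.0622). XBP1 and ATF6 passed with the term (0.22 with adjusted p = 0.000501 and 0.17 with adjusted p = 0.0413) and not without it (adjusted p 0.308 and 0.164). HSPA5 and ERN1 did not pass (0.035 with adjusted p = 0.597 and -0.11 with adjusted p = 0.566). RPL3 was at 1246 TPM in the first-kind T189M library and 779.7 and 801.8 TPM in the second-kind ones, above RPL3L_WT (log2 fold change 0.85). The fibroblast and smooth muscle markers summed to 5936 to 6242 TPM, against 5440.3 to 5785 TPM in RPL3L_WT. The part of either in the result was not tested. Of the 14 tested genes of the sensors and the PERK branch, 1 was higher and 5 lower in T189M, with DDIT3 at -0.46 (adjusted p = 2.79e-07). Among 29 other folding enzymes 11 were higher and 0 lower (0 and 0 without the term). Over all tested genes 7.51% were higher and 3.08% lower.

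**Figure D5:**
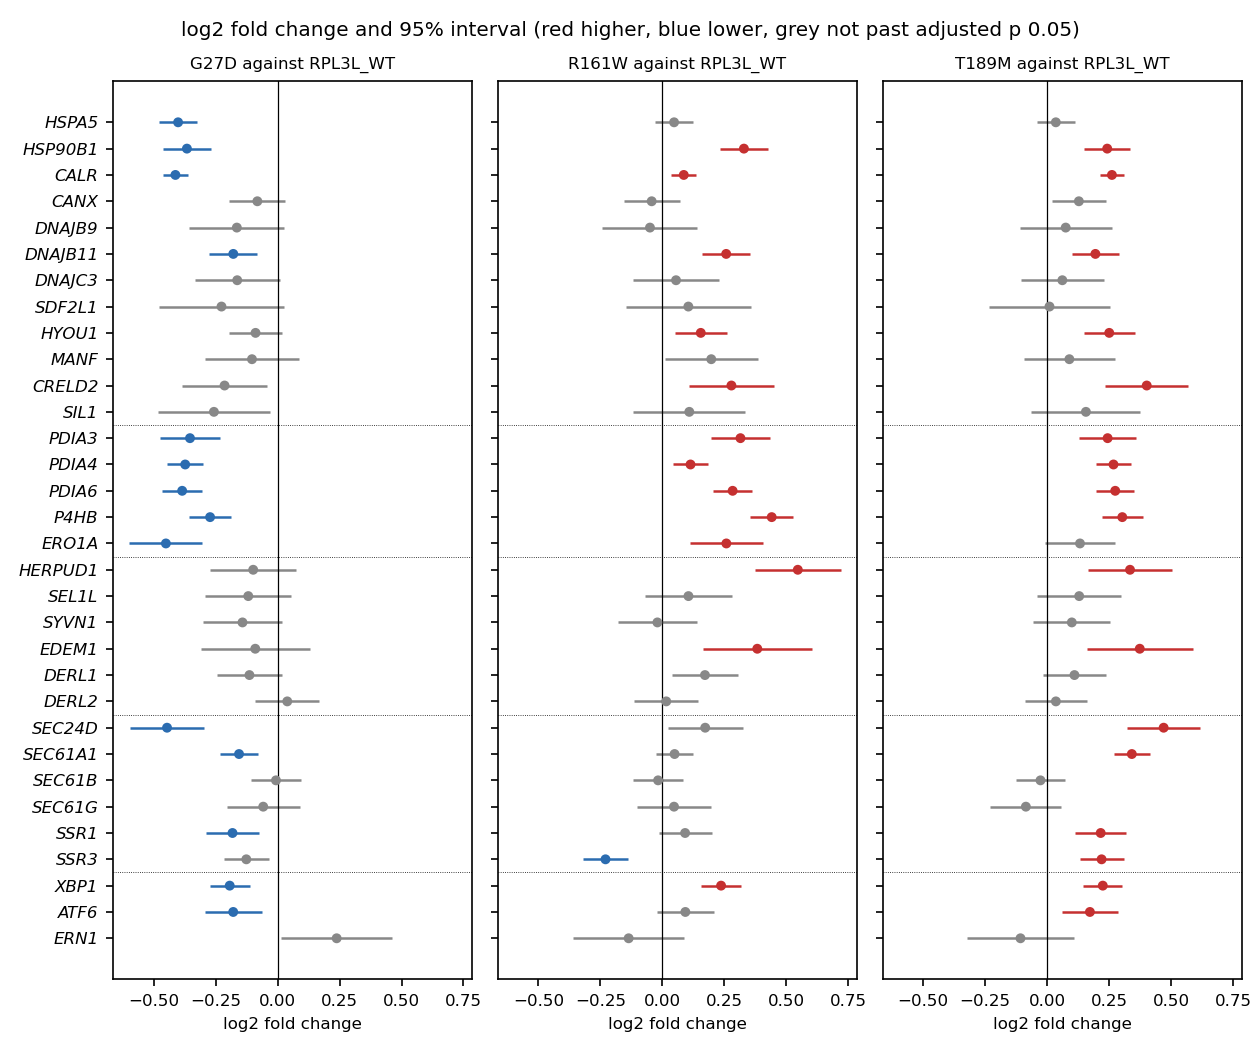
Log2 fold change of each tested member with its 95% confidence interval, for G27D, R161W and T189M each against RPL3L_WT (red higher, blue lower, grey not past an adjusted p of 0.05), with the library kind in the fit. In the G27D panel 14 members are blue and 0 red, in the R161W panel 13 red and 1 blue, and in the T189M panel 17 red and 0 blue.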

How the data were processed

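Gene expression was measured by polyA RNA-seq in 30 whole-cell libraries of 10 groups with 3 replicates each. The authors deposited TPM per gene, and every library sums to 1000000, so depth is unknown and precision rests on the 3 libraries. Per the submitters' processing notes, kallisto, bedtools, Bowtie and bcl2fastq 2.19 were used; which of them made the table, with which index and build, is not given in the sources used here. For P291L, the table's columns are headed RPL3Lsnp and were assigned through the sample labels. The 12 nuclear rRNA libraries and the 6 construct entries of the table's 60612 were not used in the tests.

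TPM were tested with limma 3.58.1 in R 4.3.3 on log2(TPM + 1), a pseudocount of 1 TPM, for the 14426 genes with a mean of at least 1 TPM over 30 libraries. One fit held the 10 groups and a term for the kind of library, a split at the widest gap of the first principal component of 334 GENCODE 29 pseudogenes. Tests were moderated with trend and robust settings, two-sided and adjusted by Benjamini-Hochberg over all tested genes within each of 14 comparisons and an F test, with a threshold of 0.05. Alternatives were no kind term, first-kind libraries only, a pseudocount of 0.1, no filter, median-ratio scaling, the 2 groups alone, a replicate block, and leaving out each library. No 2 of the 435 library pairs held identical values. The fit was tested on simulated data.

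The members, the 5 lists of other genes and the tests were chosen with earlier results of these data known. All members are accounted for. In each comparison up to 4 called members in each direction with the largest changes are named, with HSPA5, XBP1, ATF6 and ERN1, and up to 3 genes each way from each list, to which members that show where calls end were added after their values were seen. Promoters and motifs were read with Python 3.11.15 and pandas 2.3.3, and figures drawn with matplotlib 3.10.9.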

Additional observations from a re-analysis of the deposited data

Results flagged for a closer look

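The variants D308N and D308V, which change the same residue, differed from one another in 9 members, by the direct test of D308N against D308V. The log2 differences, D308N minus D308V, were -0.39 for CALR, -0.23 for PDIA3, -0.19 for CANX, -0.16 for SEC61A1, -0.14 for HSP90B1, -0.14 for PDIA6, -0.14 for P4HB, 0.24 for SYVN1 and 0.24 for XBP1. CALR was the one called also without the kind term, where the fold changes are the same, and CALR, SEC61A1 and XBP1 kept their calls without each library in turn. Groups of 3 libraries are too small for a test of single outlying libraries.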

How the results depend on the processing

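Of 228 calls of members over the 14 comparisons, 105 held in all 7 alternatives and 102 also without each library in turn. Depth is not kept by TPM and limits cannot be derived from it.

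Counts of members past the threshold moved by over 1.5 times in these cases. Without the kind term they were 1 in P291L, 6 in G27D, 8 in R161W and 5 in T189M against RPL3L_WT, 1 in D308N against D308V, and 4 in P291L and 8 in D308V against shRPL3. With first-kind libraries only, RPL3L_WT kept replicate 3 alone, so counts against RPL3L_WT in that fit are not given. With median-ratio scaling the members past the threshold were 7 in RPL3L_WT against shRPL3 and 9 in R161W against RPL3L_WT, and with no filter 5 in D308N against D308V. In the fits of 2 groups alone, which have fewer samples, they were 1 in RPL3L_WT against shRPL3, and against RPL3L_WT 11 in D308N, 10 in D308V, 13 in R343W, 9 in G27D, 0 in P291L, 7 in R161W and 2 in T189M, and 2 in D308N against D308V.

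Leaving out each library gave 23 to 25 for shRPL3 against shScramble, 9 to 11 for RPL3L_WT against shRPL3, and against RPL3L_WT 0 to 2 for P291L, 9 to 15 for G27D, 11 to 15 for R161W, 14 to 18 for T189M, 15 to 18 for D308N, 16 to 19 for D308V and 17 to 22 for R343W. It gave 3 to 7 for D308N against D308V, and against shRPL3 9 to 12 for P291L, 16 to 19 for D308N, 15 to 18 for D308V and 21 to 24 for R343W, and 32 throughout for the F test. P291L against RPL3L_WT fell to 0 without RPL3L_WT replicate 3 or P291L replicate 2 or 3, G27D against RPL3L_WT to 9 without RPL3L_WT replicate 3, and D308N against D308V to 3 without D308N replicate 2 or 3 and to 4 and 5 without D308V replicates 3 and 2.

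Directions reversed for SEC61A1 in RPL3L_WT against shRPL3 with median-ratio scaling (0.0018), and without the kind term, against RPL3L_WT, for ERO1A and CALR in R161W (-0.024 and -0.026), CRELD2, SSR1 and SEC61A1 in D308N (0.022, 0.16 and 0.032), SDF2L1 and SSR1 in D308V (0.078 and 0.13) and SSR1 in R343W (0.12). The cause was not tested.

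The replicate numbers were not used to pair the libraries. Correlations of the deviations from the fit between same-numbered libraries ran between -0.322 and 0.324, and in no comparison did all pairs pass 0.1. In groups of both kinds the kind term can tie these deviations together, so they cannot exclude a pairing. With a replicate block no count moved by over 1.5 times (26 for shRPL3 against shScramble, 17, 18 and 23 for D308N, D308V and R343W against RPL3L_WT, and 7 for D308N against D308V), and the calls lost were SIL1 and SSR1 in D308N and DNAJB9 and HYOU1 in D308V against RPL3L_WT, and HSP90B1 and SYVN1 in D308N against D308V. In P291L against RPL3L_WT all 6 libraries correlated best with their own number, and in no other comparison, though 5 of 6 did in D308V against RPL3L_WT and against shRPL3.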

Other observations

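Lists of other genes next to the members' roles showed further values. Of 22 other ER export genes, 12 were lower and 2 higher in D308N than in shRPL3, 14 lower and 0 higher in D308V, and 10 lower and 1 higher in R343W, with 9 and 1, 8 and 0, and 6 and 0 without the kind term. Over all tested genes 22.2% were lower and 11.2% higher in D308N, 22.4% and 9.67% in D308V, and 22.8% and 12.7% in R343W. KDELR3, a receptor that returns escaped ER proteins from the Golgi, averaged 36.4 TPM in D308N, 33.8 TPM in D308V and 42.9 TPM in R343W, against 67.9 TPM in shRPL3, with log2 fold changes of -0.88 (adjusted p = 6.22e-11), -0.99 (adjusted p = 6.96e-12) and -0.65 (adjusted p = 8.6e-09) by limma. It was higher in T189M than in RPL3L_WT (0.65 with adjusted p = 2.04e-07), where 10 export genes were higher and 0 lower (1 and 0 without the kind term), against 7.51% of all tested genes higher and 3.08% lower. SEC23A, a subunit of the COPII coat, had log2 fold changes of -0.64, -0.56 and -0.70 in D308N, D308V and R343W against shRPL3, each past the threshold.

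Of 28 other translocation and N-glycosylation genes, shRPL3 had 12 higher and 8 lower than shScramble (5 and 5 without the kind term), and over all tested genes 24.4% were higher and 24.5% lower. SRP19, a subunit of the signal recognition particle, averaged 211 TPM in shRPL3 and 137 TPM in shScramble (0.61 with adjusted p = 2.04e-07). RPN2 and DDOST, subunits of the oligosaccharyltransferase, were lower (-0.41 with adjusted p = 1.27e-10 and -0.51 with adjusted p = 4.76e-12). In R343W 14 of these genes were lower and 2 higher than in shRPL3 (3 lower and 0 higher without the term). Those lower included SSR2 of the TRAP complex (-0.40 with adjusted p = 1.36e-11). Over all tested genes 22.8% were lower and 12.7% higher in R343W.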
